A study of Mus musculus with 10 samples.

Results

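The 10 genes described here are the gene for the microtubule-binding protein tau (Mapt) and 9 genes for kinases, or activators of kinases, that phosphorylate tau: Cdk5 and its activators Cdk5r1 and Cdk5r2, Gsk3a and Gsk3b, Mark1, Mark2 and Mark4, and Dyrk1a. They were taken by name from 26180 mouse genes with a curated RefSeq transcript on the mm10 build. A REST peak was assigned to a gene when it overlapped the gene body or lay within 5 kb of a transcription start site. By this rule the WT peak list held 5 peaks at 4 of the 10 genes and the 3xTg list held 12 peaks at 8 of them.

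REST ChIP-seq was performed on bulk cortex of 11-month-old female mice with an antibody to the C-terminal part of REST. Each genotype had 4 replicates, made from 4 pooled cortices apiece, and 1 input library. The 3xTg line combines 2 transgenes, APPSwe and tauP301L, with a mutation knocked into PS1, on a C57BL/6J and 129Sv/Ev hybrid background, and the WT mice were littermate controls. The tau transgene is human and is inserted in addition to the mouse Mapt gene, so the peaks below are those of the mouse locus. The deposited data analysed here are 1 peak list per genotype, which its name marks as covering the 4 replicates together. No value per replicate enters them, and so no difference between the genotypes could be tested and no value below has a replicate error. In bulk tissue, binding in fewer cells and weaker binding per cell cannot be told apart, and a peak list holds no expression value with which to check the cell types present.

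REST is a zinc finger repressor that recruits histone deacetylases and other corepressors to neuronal genes. Its best known binding site is RE1, a long composite element made of a left and a right block of bases. Tau stabilises axonal microtubules and is detached from them by phosphorylation. CDK5, which needs the activators p35 (Cdk5r1) or p39 (Cdk5r2), and the glycogen synthase kinases GSK3α and GSK3β phosphorylate serines and threonines that precede proline. The MARK kinases act on the microtubule-binding repeats, and DYRK1A can prime sites for GSK3. These kinases are studied in Alzheimer's disease because hyperphosphorylated tau forms neurofibrillary tangles.

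The sequences that the results turn on come from the mm10 genome and RefSeq. RE1-like sites were searched on both strands of every peak as CAGCACC followed by 2 bases of any kind and GGACAGC, so that 14 letters were compared, and a peak was counted as holding a site when at most 2 letters differed. The best match within 1 peak is printed below for each of 7 genes, from 5′ to 3′ with 3 bases on either side. Capitals mark the letters that match the pattern, and lower case marks mismatches, the 2 free bases and the flanks. Cdk5r2 carries every letter of the pattern, and the other lines, which do not count as sites, are shown to compare with it. The best match had 4 mismatches in 43.6% of all 3xTg peaks and 5 in 32.5%. The Mapt line is from the intronic peak of the WT list and the Mark1 line from its peak in the 3xTg list alone. The start site peaks of Mapt and Cdk5 each had a match with 3 mismatches, which is not printed.
Cdk5r2, chr1:74858230-74858251, minus strand, 0 mismatches: cttCAGCACCacGGACAGCgaa
Gsk3b, chr16:38089214-38089235, minus strand, 3 mismatches: cccCAGCAaCgaGGAatGCcga
Mapt, chr11:104249121-104249142, minus strand, 4 mismatches: cagCAtCAgCctGcAtAGCcat
Dyrk1a, chr16:94632439-94632460, plus strand, 4 mismatches: tacCAGCACtatGtAaAGattt
Mark2, chr19:7341607-7341628, plus strand, 4 mismatches: ggcCgcCACCaccGcCAGCcct
Mark1, chr1:184969777-184969798, plus strand, 4 mismatches: gctttGaACgttGGACAGCtgt
Gsk3a, chr7:25237843-25237864, plus strand, 5 mismatches: tgtCAcCACCctcGACccgcac
The Gsk3b match lay in the 5′ untranslated part of Gsk3b exon 1, and the Mark2 match lay in the same part of Mark2 exon 1. The Gsk3a match spanned the Gsk3a start site, and those of Mapt, Dyrk1a and Mark1 were intronic. The Cdk5r2 match is shown once more in its surroundings, as the 101 bases centred on the WT summit with the matching site in capitals. On the plus strand printed here the site reads as the reverse complement of the line above.
Cdk5r2 summit, chr1:74858222-74858322, plus strand: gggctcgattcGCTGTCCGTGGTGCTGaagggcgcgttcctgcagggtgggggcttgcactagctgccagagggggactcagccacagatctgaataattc

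To place the counts, every gene was treated by the same rule. In the WT list 9.27% of the 26180 genes had a peak, against 4 of the 10 tau and tau kinase genes (Mapt, Cdk5, Cdk5r2 and Mark1). In the 3xTg list the share was 14.2% of all genes, against 8 of 10 (those 4 and Gsk3a, Gsk3b, Mark2 and Dyrk1a). Peaks of both lists were found at 7.75% of all genes and at 4 of the 10, and a 3xTg peak alone at 6.40% of all genes and 4 of the 10. No gene of the set had a WT peak alone, which was the case for 1.51% of all genes. Cdk5r1 and Mark4 had a peak in neither list. With the start sites alone as the target, 2 of the 10 genes had a WT peak within 5 kb (6.70% of all genes) and 6 had a 3xTg peak (9.84% of all genes). Long genes offer more room to a peak, and 5 of the 10 genes (Mapt, Gsk3b, Mark1, Mark2 and Dyrk1a) spanned 60 kb or more. Among the 4205 genes of that length, 20.7% had a WT peak and 32.6% a 3xTg peak, against 4.74% and 7.34% of the 7588 genes under 5 kb. All 5 long genes of the set had a 3xTg peak, and Mapt and Mark1 also had a WT peak.

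The values of the lists bear on each absence. The measure used is the fold enrichment of a peak, the signal at its summit over the local background. The WT list ended at a fold enrichment of 6.0 and the 3xTg list at 8.50, with medians of 7.28 over 3006 peaks and 10.8 over 5077 peaks. Both limits are above the fold enrichment of 5 stated in the methods, and how they were set is not given in the sources used here. A gene without a WT peak therefore had no called peak at or above 6.0, and its WT value below that limit is not known. Of the WT peaks, 2056 (68.4%) had a fold enrichment under the 3xTg limit of 8.50. When the WT list was ended at 8.50 too, 2 of the 10 genes (Cdk5 and Cdk5r2) still had a WT peak, against 3.00% of all genes.

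**Figure D1:**
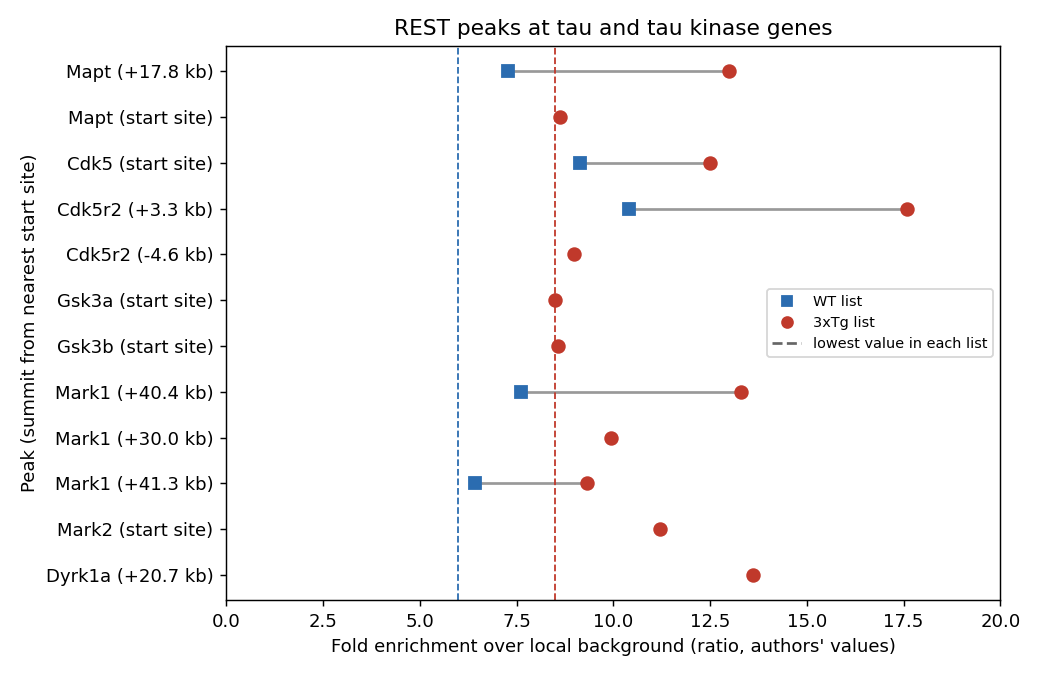
Fold enrichment (ratio, horizontal axis) of each REST peak at the tau and tau kinase genes, with the distance of its summit from the nearest start site of the gene on the vertical axis. WT values are blue squares, 3xTg values are red circles, a grey line joins overlapping peaks, and the dashed lines mark the lowest value of each list (6.0 and 8.50). The 5 WT peaks each had a higher 3xTg partner, and the 7 other 3xTg peaks had none. No 3xTg partner under 8.50 could be listed, so WT values below that could only have a higher one.

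At Mapt (chr11:104231436-104332090, plus strand), REST was found in intron 1 in both genotypes. The WT peak at chr11:104249008-104249363 reached a fold enrichment of 7.28, rank 1503 of 3006. The overlapping 3xTg peak at chr11:104248884-104249990 reached 13.0, rank 1511 of 5077. The summits of these peaks were 32 bases apart and lay 17754 and 17786 bases downstream of the start site, so that this is an intronic and not a promoter peak. The start site itself was covered in the 3xTg list alone, by a peak at chr11:104230923-104232021 with a fold enrichment of 8.63 and rank 4821. That value is close to the end of the 3xTg list, and the peak was a weak one next to the intronic peak of the same gene.

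The CDK5 group held the strongest peak of the set and also a gene with none. Cdk5 encodes the kinase (chr5:24418228-24423564, minus strand), and its start site was covered in both lists. The WT peak at chr5:24423429-24424407 reached a fold enrichment of 9.13, rank 757. The 3xTg peak at chr5:24423160-24425687 reached 12.5, rank 1699, so Cdk5 stood lower in the longer 3xTg list although its value was higher. The 3xTg peak was 2528 bases wide, wider than 97.0% of its list, and also covered the start site of Slc4a2, an anion exchanger gene that begins on the opposite strand. The WT peak ended 825 bases short of the Slc4a2 start site. The summits lay 188 and 129 bases upstream of the Cdk5 start site, nearer to Cdk5 than to Slc4a2.

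Cdk5r2, the gene for the activator p39 (chr1:74855029-74857732, plus strand), had the highest fold enrichment of the 10 genes in either list. In WT its peak at chr1:74858053-74858915 measured 10.4, rank 516, and in 3xTg the peak at chr1:74857354-74858939 measured 17.6, rank 671. Both summits lay just past the 3′ end of the gene, by 540 bases in WT and 587 bases in 3xTg, inside intron 2 of Gm16582, an overlapping gene of unknown function on the same strand. The full RE1-like site printed above was 31 bases from the WT summit and 78 bases from the 3xTg summit. A further 3xTg peak at chr1:74849742-74850986, with a fold enrichment of 8.98 and rank 4337, had its summit 4641 bases upstream of Cdk5r2 but only 507 bases from the start site of Gm16582. That peak had no WT partner and no RE1-like site. Cdk5r1, the gene for the activator p35 (chr11:80477023-80481184, plus strand), had no peak. Its nearest WT peak was 68721 bases from the gene body, and its nearest 3xTg peak, with a fold enrichment of 12.6 over the first exon of the non-coding gene C030013C21Rik, was 27056 bases away.

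Both glycogen synthase kinase genes had a 3xTg peak over the start site and no WT peak, and both peaks stood at the very end of the 3xTg list. The Gsk3a peak (gene at chr7:25228259-25237851, minus strand) lay at chr7:25237765-25239728 with a fold enrichment of 8.50, the lowest value of the list and its last rank, 5077. Ordered by the q value of the peak instead, it ranked 3679. The Gsk3b peak (gene at chr16:38089001-38246084, plus strand) lay at chr16:38087521-38090032 with a fold enrichment of 8.57 and rank 5009. Its summit was 51 bases upstream of the Gsk3b start site, within exon 1 of the non-coding gene BC031361, which begins on the opposite strand, and the peak covered both start sites. The peaks were broad, at 1964 and 2512 bases, wider than 91.7% and 96.8% of the 3xTg list. The nearest WT peak to Gsk3a was 29455 bases away at the start of Cic, with a fold enrichment of 12.1, and the nearest to Gsk3b was 217369 bases away.

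The 3 MARK genes differed from each other. Mark1 (chr1:184896424-184999954, minus strand) had 3 peaks in intron 1, about 30 to 41 kb from its start sites, and none at the start sites. The strongest lay at chr1:184958735-184959257 in the WT list (fold enrichment 7.62, rank 1271) and at chr1:184958726-184959561 in the 3xTg list (13.3, rank 1455). A neighbouring peak measured 6.43 in the WT list (rank 2259, chr1:184957916-184958336) and 9.32 in the 3xTg list (rank 3892, chr1:184957832-184958543). The third peak, at chr1:184969384-184970316, was in the 3xTg list alone, with 9.95 and rank 3237. Mark1 was thus the gene of the set with the most peaks in each list.

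Mark2 (chr19:7275396-7341860, minus strand) had a 3xTg peak over its upstream start site at chr19:7341113-7343049, with a fold enrichment of 11.2 and rank 2289, and no WT peak within 234496 bases of the gene body. The summit was 912 bases upstream of the start site. Mark4 (chr7:19425102-19458843, minus strand) had no peak, and its nearest peaks were 103297 bases away in WT, at the start of Ppp1r37, and 116019 bases away in 3xTg, in an intron of Fosb.

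Dyrk1a (chr16:94570206-94695519, plus strand) had a single 3xTg peak, at chr16:94631823-94632589, with a fold enrichment of 13.6 and rank 1354. It was the highest 3xTg value of the set without a WT partner, and second to Cdk5r2 alone among all 3xTg values of the 10 genes. The peak was intronic, 20692 bases from the nearest of the 3 start sites, and none of the start sites carried a peak. The nearest WT peak was 152087 bases from the gene body, in an intron of Ttc3, with a fold enrichment of 6.05.

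**Figure D2:**
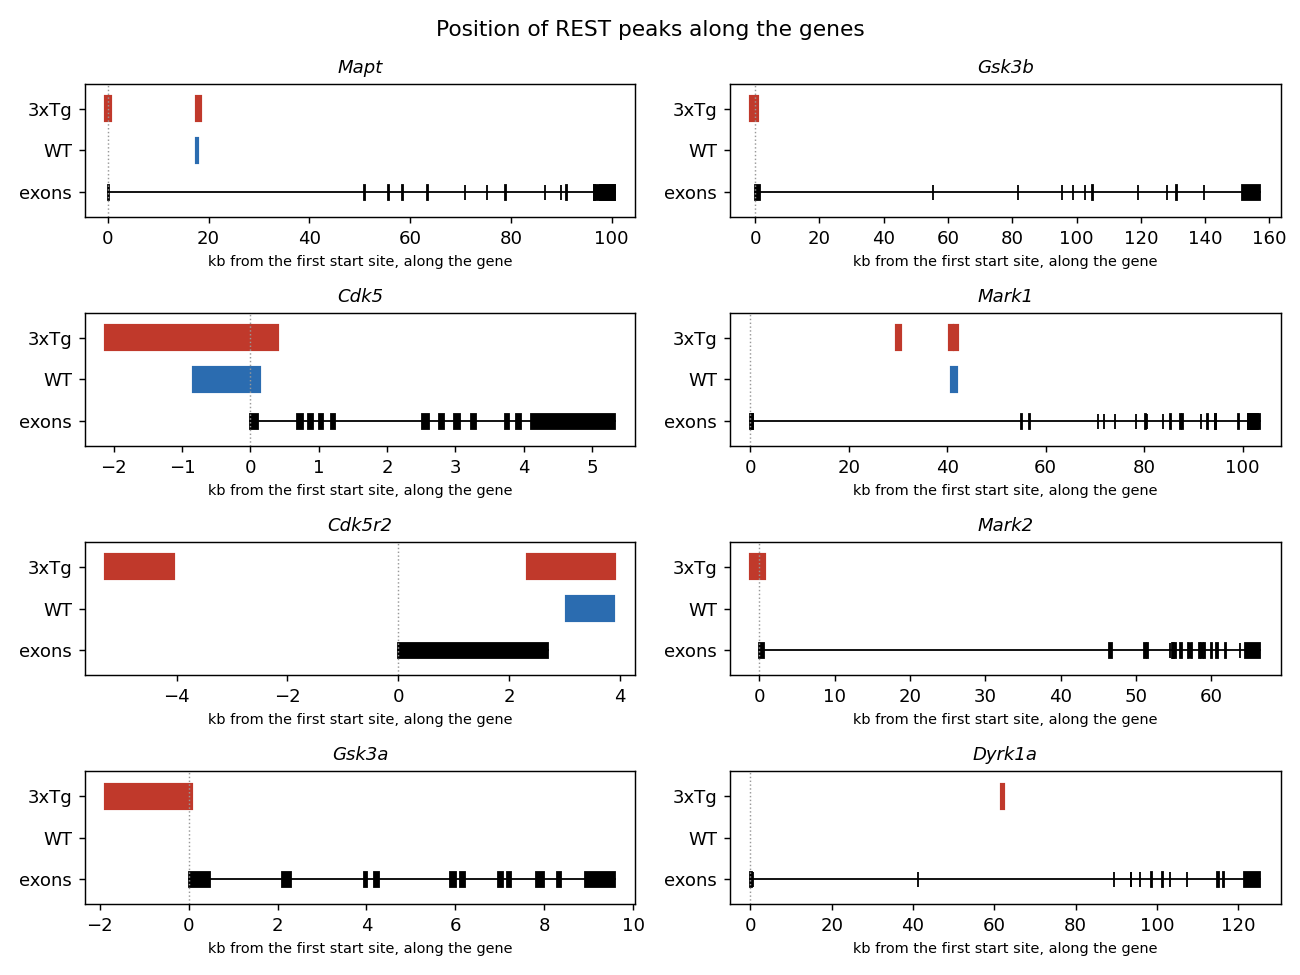
REST peaks of the WT list (blue) and the 3xTg list (red) along the 8 genes with a peak, with exons in black and the distance from the first start site in kb, in the direction of transcription, on the horizontal axis of each panel (scales differ). Cdk5, Gsk3a, Gsk3b, Mark2 and Mapt had a 3xTg peak over a start site, whereas the peaks of Mark1 and Dyrk1a were in introns and the strongest Cdk5r2 peak lay just past the gene's end.

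All 5 WT peaks of these genes overlapped a 3xTg peak, as did 83.3% of the WT list. Of the 12 3xTg peaks, 5 overlapped a WT peak, against 49.0% of the 3xTg list. The fold enrichment was higher in 3xTg at each of the 5 shared peaks, by 1.79 times at Mapt, 1.38 times at Cdk5, 1.69 times at Cdk5r2 and 1.74 and 1.45 times at Mark1. This was also the case for 99.5% of the 2504 WT peaks with a 3xTg partner, whose median ratio was 1.70 (interquartile range 1.49 to 1.94). With the 3xTg list ending at 8.50, a WT value under 8.50 could only have a higher partner. This holds for Mapt and both Mark1 peaks and for 68.4% of the WT list. The WT values of Cdk5 and Cdk5r2, 9.13 and 10.4, were above that limit. Against the shared peaks with a WT value up to that of Cdk5r2, the 5 ratios stood between the 12.9th percentile (Cdk5) and the 59.0th (Mapt). The interquartile range of those peaks was 1.49 to 1.96. Cdk5 and the lower of the Mark1 ratios were below it, and the other ratios were within it. The 3xTg peaks were also wider, by 1.60 to 3.11 times at the 5 loci, against a median of 1.66 times over all shared peaks.

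**Figure D3:**
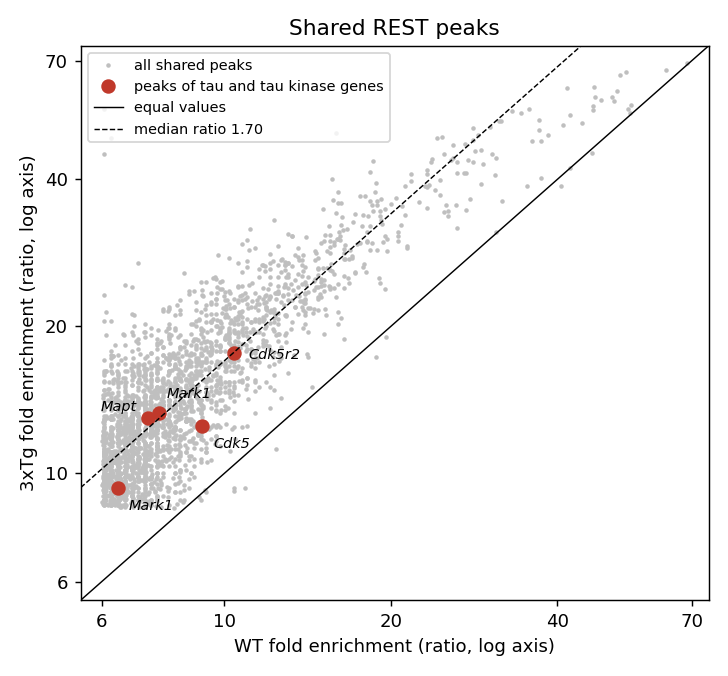
WT and 3xTg fold enrichment (ratios, log axes) of the 2504 shared REST peaks (grey), with those of the tau and tau kinase genes in red. The solid line marks equal values and the dashed line the median ratio of 1.70. The 5 red points lie above the solid line, and Cdk5 is the farthest below the dashed one. Since the 3xTg list ends at 8.50, WT values under 8.50 could only give points above the solid line.

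How often a 3xTg peak of a given height had a WT partner was read from its 200 neighbours in rank. Near the end of the list this was uncommon. For both Gsk3a and Gsk3b, 28 of the 200 neighbours were shared, against 32 for the Mapt start site peak and 36 for the upstream Cdk5r2 peak. At the heights of the unshared Mark1 peak and of Mark2, 63 and 84 of the 200 were shared. For Dyrk1a 148 of the 200 were shared, the most among the 7 unshared peaks, and the rest of the 200 had no WT partner either. Divided by the median ratio of 1.70, the 3xTg value fell under the WT limit of 6.0 for 5 of the 7 unshared peaks, for example 5.0 for Gsk3a and 5.04 for Gsk3b, and stayed above it for Mark2 (6.60) and Dyrk1a (8.02). The shared Mark1 peak of 9.32 also fell under it, to 5.48, although its WT partner measured 6.43. The median ratio itself comes from pairs without 3xTg values under 8.50. Why the 7 peaks had no WT partner was not tested.

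**Figure D4:**
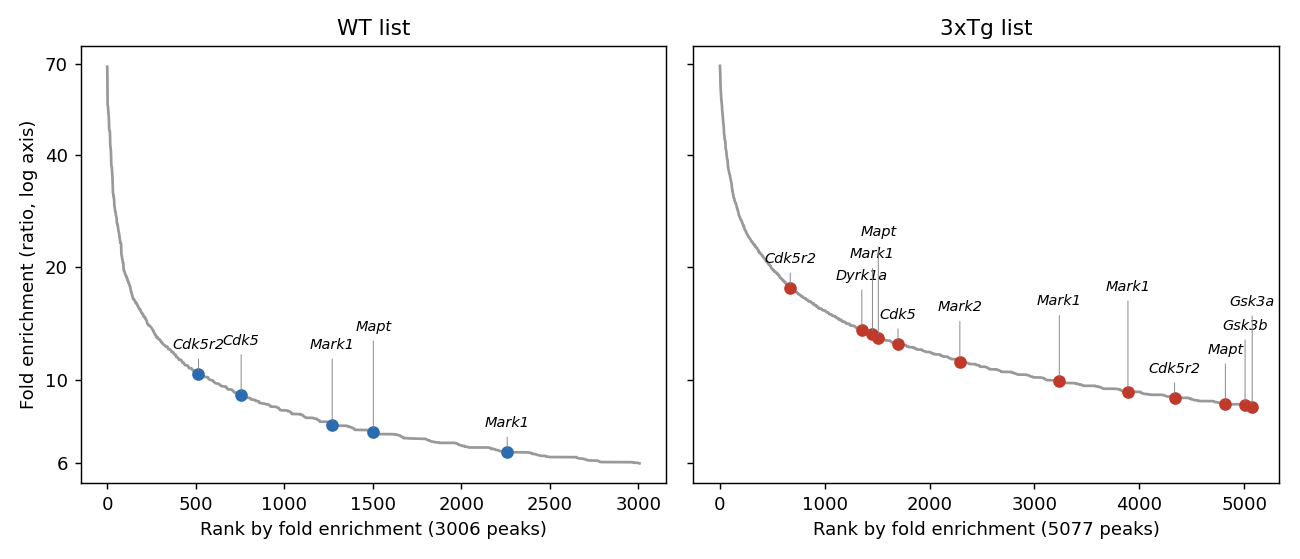
Fold enrichment (ratio, log axis) against rank for all peaks of the WT list (left, 3006 peaks) and the 3xTg list (right, 5077 peaks), with the peaks of the tau and tau kinase genes as points. In WT they ranked from 516 to 2259, and in 3xTg from 671 (Cdk5r2) to the last rank (Gsk3a).

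By the rule of at most 2 mismatches, RE1-like sites were uncommon in both lists, and Cdk5r2 alone of the 10 genes had a peak with one. The paper's own motif search reported strong enrichment of RE1 in the peaks of both genotypes. Enrichment is another measure than the share of peaks with a site, and the pattern used here is a strict one. In the WT list 211 of 3006 peaks held a site (7.02%, 95% Wilson interval 6.16 to 7.99), against 1 of the 5 peaks of these genes. In the 3xTg list 304 of 5077 peaks held one (5.99%, 5.37 to 6.67), against 1 of the 12. Windows of the same width 10 kb away held a site in 0.901% of 2996 cases for the WT list and 1.60% of 5058 for the 3xTg list. A site with no mismatch, as at Cdk5r2, was present in 59 WT peaks (1.96%) and 67 3xTg peaks (1.32%). Among the 100 highest peaks, 34 in WT and 29 in 3xTg held a site, so sites were found more often at the top of the lists than over the whole. In the remaining 11 3xTg peaks of the set the best match had 3 mismatches (the start site peaks of Cdk5, Mapt and Gsk3b), 4 or 5. Of the intervals given here, all cover counting error only.

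Base composition separated the peaks over a start site of their own gene from those in its introns, with Mark2 as the exception. It was taken in the 501 bases centred on each summit, as GC content and as the CpG ratio, the number of CpG pairs over that expected from the C and G content. The median 3xTg peak had 46.9% GC and a CpG ratio of 0.299. The Mapt start site peak had 64.5% GC and a ratio of 0.952, above 95.6% of the list, and Gsk3b had 61.9% and 0.725, Cdk5 59.7% and 0.721, and Gsk3a 51.1% and 0.612. The 5 peaks with an intronic summit in their own gene had between 37.7% (Dyrk1a) and 48.1% GC and ratios from 0.223 to 0.311. The 2 Cdk5r2 peaks were in neither group, as they lay at parts of Gm16582, and both had more GC than the Gsk3a start site peak. The peak past the gene's end, with its summit in a Gm16582 intron, had 59.1% GC and a ratio of 0.563. The upstream peak covered the Gm16582 start site and yet had a ratio of only 0.189, with 54.5% GC. By the parts of Gm16582, these peaks did not follow the separation. At Mark2 the summit had 40.7% GC and a ratio of 0.0482, higher than only 5.10% of the list, although the peak reached over the start site.

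**Figure D5:**
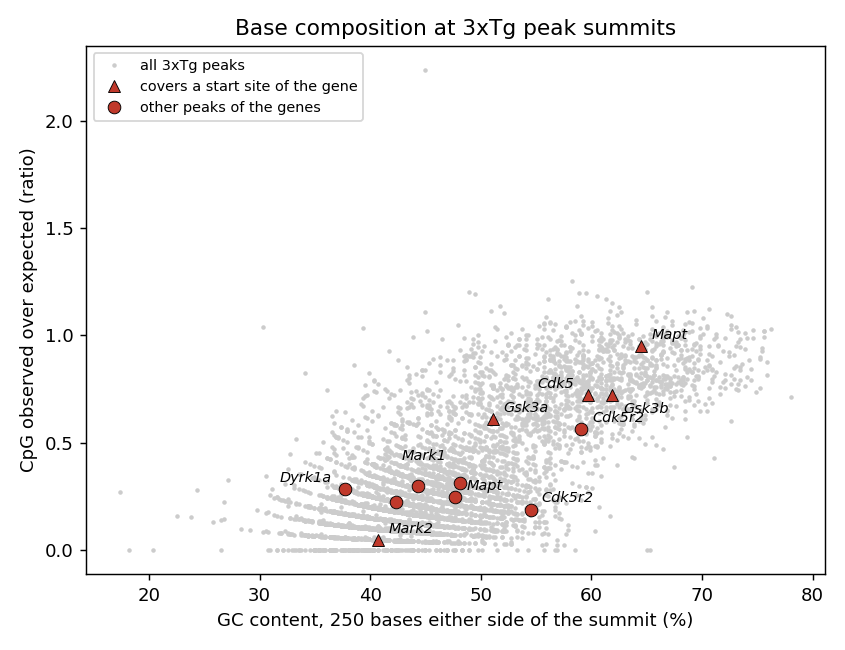
GC content (percent) and CpG observed over expected (ratio) in the 501 bases centred on the summit of every 3xTg peak (grey), with the 12 peaks of the tau and tau kinase genes in red. Triangles cover a start site of their own gene and circles do not. Mapt, Cdk5, Gsk3b and Gsk3a start site peaks had CpG ratios of 0.612 or more, and the Mark2 summit had 0.0482.

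The promoter sequences themselves are shown for their CpG content. The set of RefSeq promoters used (mm10) held entries for 6 of the 10 genes. It held none for Mapt, Cdk5, Cdk5r1 and Mark4, although their start sites are annotated and were used above. The 250 bases before the start site are printed for the 3 of these 6 genes whose 3xTg peak covered it. They are also printed for the first start site of Dyrk1a, which no peak covered. CpG pairs are in capitals.
Gsk3a, chr7:25237852-25238101, minus strand: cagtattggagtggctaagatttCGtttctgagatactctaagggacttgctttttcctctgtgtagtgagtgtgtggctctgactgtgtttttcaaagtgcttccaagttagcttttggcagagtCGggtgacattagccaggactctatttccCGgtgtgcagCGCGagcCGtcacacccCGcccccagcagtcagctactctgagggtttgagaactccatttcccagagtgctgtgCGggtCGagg
Gsk3b, chr16:38088751-38089000, plus strand: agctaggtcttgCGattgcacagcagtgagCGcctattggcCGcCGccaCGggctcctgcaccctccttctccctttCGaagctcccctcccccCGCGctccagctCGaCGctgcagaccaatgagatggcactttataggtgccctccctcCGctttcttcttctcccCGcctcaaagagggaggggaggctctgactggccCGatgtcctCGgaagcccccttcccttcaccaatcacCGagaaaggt
Mark2, chr19:7341861-7342110, minus strand: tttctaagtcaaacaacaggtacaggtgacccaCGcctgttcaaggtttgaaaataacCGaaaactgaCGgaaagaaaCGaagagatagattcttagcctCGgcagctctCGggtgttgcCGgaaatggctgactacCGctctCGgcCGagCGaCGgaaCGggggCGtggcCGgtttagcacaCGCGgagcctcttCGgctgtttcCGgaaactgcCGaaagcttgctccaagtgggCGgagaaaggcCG
Dyrk1a, chr16:94569956-94570205, plus strand: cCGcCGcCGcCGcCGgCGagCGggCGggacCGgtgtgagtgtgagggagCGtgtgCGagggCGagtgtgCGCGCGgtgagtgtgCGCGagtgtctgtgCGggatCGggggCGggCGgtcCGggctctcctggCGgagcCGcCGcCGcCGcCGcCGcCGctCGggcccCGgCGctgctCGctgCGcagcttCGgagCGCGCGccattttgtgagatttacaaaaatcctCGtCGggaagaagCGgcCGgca
These stretches held 9 CpG pairs at Gsk3a, 15 at Gsk3b, 22 at Mark2 and 43 at Dyrk1a, against a median of 6 over 32851 RefSeq promoters. The Dyrk1a stretch had a CpG ratio of 1.28, above 99.8% of promoters, and yet carried no peak, and the Mark2 stretch had 1.15, above 98.8% of promoters. The Mark2 summit lay upstream of these bases. The 101 bases around that summit and around the intronic Dyrk1a summit are printed for comparison, again with CpG pairs in capitals.
Mark2 summit, chr19:7342722-7342822, plus strand: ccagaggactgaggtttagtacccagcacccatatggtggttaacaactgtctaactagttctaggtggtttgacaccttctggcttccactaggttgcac
Dyrk1a summit, chr16:94632061-94632161, plus strand: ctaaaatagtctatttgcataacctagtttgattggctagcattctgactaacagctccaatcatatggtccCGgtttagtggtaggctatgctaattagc
The Mark2 summit held no CpG pair and the Dyrk1a summit held 1. None of the promoters of these 6 genes held an RE1-like site with at most 2 mismatches, and 0.624% of all promoter stretches of that length did.

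The rest of the tau pathway was read from 4 fixed lists with 97 genes, of which 19 (19.6%) had a WT peak, 30 (30.9%) a 3xTg peak, 16 both and 64 neither. Among 32 further tau kinases, 6 had a WT peak and 9 a 3xTg peak. The highest were Abl1, a tyrosine kinase, which measured 15.8 in WT and 24.0 in 3xTg (fold enrichment), Mapk10 (JNK3) with 14.5 and 21.7, Prkacb, a catalytic subunit of protein kinase A, with 8.98 and 20.7, and Fyn, a Src family tyrosine kinase, with 9.45 and 20.4. All 4 stood above Cdk5r2 in the 3xTg list. Csnk2a1, a casein kinase 2 subunit, had 6.68 and 9.87. Brsk2, a kinase of neuronal polarity, had a WT peak alone, with a fold enrichment of 6.44 in intron 1 and an RE1-like site without mismatch.

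Among 23 regulators of the 9 kinases and activators, 3 had a WT peak and 6 a 3xTg peak. Dvl1, a Wnt signalling protein upstream of GSK3, had the highest values of all 97 genes, fold enrichments of 21.4 in WT and 28.9 in 3xTg, at a peak with 1 mismatch to the RE1-like pattern whose summit lay in the 3′ untranslated part of the neighbouring gene Tas1r3. The GSK3-binding protein gene Frat1 had 7.75 and 14 over its start site, and Pak5, annotated as Pak7, had 6.62 and 13.1. Cables1, which encodes a CDK5-binding protein, and Gskip, a GSK3β-binding protein, had a 3xTg peak alone, with 11.1 and 9.57.

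Among 22 phosphatase genes, 5 had a WT peak and 8 a 3xTg peak. Ppp3ca, a calcineurin catalytic subunit, measured 12.5 in WT and 20.7 in 3xTg, Ppp5c had 8.36 and 13.6, and Ppp2r2b, a regulatory subunit of protein phosphatase 2A, had 7.38 and 11.9. Ppp2r5b had a 3xTg peak alone (10.4) and Ppme1 a WT peak alone (7.45). Among 20 genes of tau turnover and other microtubule-associated proteins, 5 had a WT peak and 7 a 3xTg peak. Dclk1 was covered by 7 WT peaks and 8 3xTg peaks, and Map4 by 2 and 3. The highest peaks of these genes were at different places in the lists, with 11.0 in WT and 19.0 in 3xTg for Dclk1 and with 8.51 and 13.0 for Map4. Map2 had 8.13 and 13.1 at the same place. Map6 had a 3xTg peak alone, with 12.3, and the autophagy receptor gene Sqstm1 had a WT peak alone, with 6.04. As among the 10 genes, the shares over the 97 genes stood above the 9.27% and 14.2% of all genes. The lengths of the 97 genes were not taken into account. Among all genes of 60 kb or more, 20.7% had a WT peak and 32.6% a 3xTg peak.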

How the data were processed

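REST ChIP-seq of 8 cortex pools and 2 inputs was deposited as 2 peak lists. Per the methods, the authors aligned reads to mm10 with STAR 2.7.0a (the submitters' processing notes also name BWA), called peaks with MACS, kept a fold enrichment over 5 and a q-value under 0.01, and removed blacklisted regions. The names of the lists give 4 replicates each, from which pooling was inferred. The lists end at higher values than these limits (fold 6.0 and 8.50, −log10 q 13.3 and 29.0), and the reason is not given in the sources used here. The deposited columns hold a score, the fold enrichment as a ratio, and the p-value and q-value as −log10; ranks follow the fold ratio. Read depth is not in the lists, and p-values were not reused as tests. Peaks on chromosome Y (4 WT, 9 3xTg) were left out, a choice made with the data known, which leaves 3006 and 5077.

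Curated RefSeq transcripts gave gene bodies and start sites. Peaks were shared if they overlapped by 1 base. Sequence matches counted mismatches over 14 letters on both strands. Controls were windows of equal width 10 kb away. The scripts were tested on planted sites and against bedtools 2.31.1 (Python 3.11.15, pandas 2.3.3, pysam 0.24.0). The 10 genes and the 4 lists were chosen with earlier results of these data known. From each list the text names the 5 genes with the highest 3xTg fold enrichment and any with a WT peak alone, and neighbours that begin within 5 kb of a peak of the 10. Of the genes this rule names, 2 are not reported here. No test between genotypes was made. The alternatives were the gene region, the annotation, stricter fold and q limits, lists of equal length, the overlap and the mismatches allowed.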

Additional observations from a re-analysis of the deposited data

How the results depend on the processing

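No paired analysis was possible because there is 1 list per genotype, and for the same reason no replicate could be left out. With start sites alone, 2 of the 10 genes kept a WT peak and 2 had both, and 9 and 16 of the 97 pathway genes had a WT and a 3xTg peak (all genes 6.70% and 9.84%). With a fold enrichment over 10, 1 of the 10 genes had a WT peak and 1 had both, and the pathway counts were 5 and 18 (all genes 1.90% in WT and 9.38% in 3xTg). With a 3xTg list as short as the WT list, 18 pathway genes had a 3xTg peak (all genes 8.79%), no more than the 19 with a WT peak (all genes 9.27%). With the lowest 3xTg fold enrichment as the limit in both lists, an alternative added after the data were seen, 2 of the 10 genes had a WT peak, 2 had both, and 9 pathway genes had a WT peak (all genes 3.00%). In each of these the smaller count follows from fewer peaks or less sequence examined. With 50% of both peaks overlapping, 3 of the 12 3xTg peaks were shared, Mapt and Cdk5 being lost through their wider 3xTg peaks, and 1 was when both peaks had to exceed 10. With 3 mismatches allowed, 2 WT and 4 3xTg peaks of the genes held a site, where 16.5% and 19.3% of all peaks did. The 3xTg count of 8 genes was 6 with start sites alone, with a fold enrichment over 10 and with lists of equal length, where the share of all genes fell from 14.2% to 9.84%, 9.38% and 8.79%. Gene bodies alone left 3 genes with a WT peak, since the Cdk5r2 peak lies past the gene's end. Predicted transcripts, GENCODE genes, summits in place of peaks and q under 1e-05 left both counts of the 10 genes as given. With chromosome Y kept the 17 ranks shifted by 1 to 9 places, and when ordered by q by 4 to 1398 places, most at Gsk3a.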

Other observations

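The primers that the study designed for PCR of REST-bound DNA were placed on mm10. The Cdk5 pair lay at chr5:24423696-24423761, inside the peaks of both lists. The Gsk3b pair lay at chr16:38089187-38089282, inside the 3xTg peak and downstream of its summit, and as listed both of its sequences read on the plus strand.
Gsk3b forward, chr16:38089187-38089206: accctcttcccttctgttcg
Gsk3b reverse, chr16:38089264-38089282: ggttatccaggtcgctcgg
The control pair of Cdk5 lay at chr5:24418133-24418205, just past the 3′ end of Cdk5, and that of Gsk3b at chr16:38101419-38101515, in intron 1 of Gsk3b. Neither region held a peak of either list.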
